A study of Mus musculus with 6 samples.

Results

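Genes known to respond to bone morphogenetic protein (BMP) signalling, or to feed back on it, were followed in enterospheres, the free-floating spheroids that form when the muscle layer of neonatal mouse gut is dissociated and cultured, and that contain enteric neural progenitors together with other cell types. They were the 4 Id factors (Id1, Id2, Id3 and Id4), the SMADs Smad6, Smad7 and Smad9, and Atoh8, Bambi and Nog. The genes were taken by their symbols in the platform annotation, and all 10 of 10 were found among the 19938 genes measured, each with 1 transcript cluster of its own. A transcript cluster is the set of probes that the array summarises into 1 value.

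The 3 differentiation samples were enterospheres of neonatal C57BL/6 mice that proliferated for 9 days and then spent 2 days in a medium with ascorbic acid-2-phosphate and without EGF and FGF, and the 3 proliferation samples were kept with EGF and FGF for 11 days. Each sample was hybridised to 1 GeneChip Mouse Gene 1.0 ST array. No genetic change is named for either group. By the labels each sample was made from 3 mice and received 10 ng/mL EGF and 20 ng/mL FGF, whereas the text of the methods gives fewer pups, from 1 litter, and a higher EGF concentration. Growth factors were removed and ascorbic acid-2-phosphate added at the same step, so the effects of these changes cannot be told apart. By the methods the arrays came from 3 experiments with cultures prepared separately, while the labels do not say which sample belongs to which experiment.

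BMPs are secreted ligands that bring together type I and type II receptors with kinase activity. The activated receptors phosphorylate SMAD1, SMAD5 and SMAD9, which enter the nucleus with SMAD4 and switch on target genes, among them the Id genes. Id proteins have a helix-loop-helix domain but no DNA-binding region, so they tie up E proteins and thereby hold back basic helix-loop-helix (bHLH) factors. In the developing gut, BMP signalling takes part in the aggregation of enteric neurons into ganglia and in their differentiation, and Noggin limits it.

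In differentiating enterospheres Id3 and Atoh8 rose about 2-fold, by factors of 2.10 and 1.93. Id1 and Id2 were higher on every array but changed less, by factors of 1.32 and 1.33, and did not pass the test. Id4 had a lower mean, and Smad6, Smad7, Smad9, Bambi and Nog did not pass, with overlapping groups. A gene passed where its adjusted p was under 0.05 in limma, a linear model fitted to all 35556 clusters with Benjamini-Hochberg adjustment over them. Of the 10 genes 2 passed, both higher, against 5.91% of all genes measured in either direction with 2.94% higher and 2.97% lower. At an unadjusted p under 0.05 there were 5 of the 10 (19.1% of all genes), and the comparison described in the methods, an unadjusted p under 0.05 with a change of at least 1.5-fold, called the same 2 (5.66% of all genes). Values are log2 RMA values throughout, changes are log2 differences of differentiation minus proliferation, and SE is their standard error.

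The stretches upstream of the start of the genes that rose and of Id2 and Id4 are shown because the results turn on these genes. Upstream entries of RefSeq (GRCm38.p6) were used for 6 of the 10 genes (Atoh8, Id2, Id3, Id4, Smad6 and Smad9). A filter by chromosome was applied to the entries of the 10 genes and not to those of the whole table. No stretch of Id1, Smad7, Bambi or Nog was searched, so the motif counts do not cover these genes. The 250 bases before the start are written in the direction of transcription, and capitals mark GGCGCC, a GC-rich element to which BMP-activated SMADs can bind.
Id3 (chr4:136143572-136143821, plus strand): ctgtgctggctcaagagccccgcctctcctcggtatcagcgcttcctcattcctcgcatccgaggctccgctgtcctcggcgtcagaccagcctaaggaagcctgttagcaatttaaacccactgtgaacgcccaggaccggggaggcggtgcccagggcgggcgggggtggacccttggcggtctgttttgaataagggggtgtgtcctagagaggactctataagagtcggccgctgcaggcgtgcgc
Atoh8 (chr6:72235578-72235827, minus strand): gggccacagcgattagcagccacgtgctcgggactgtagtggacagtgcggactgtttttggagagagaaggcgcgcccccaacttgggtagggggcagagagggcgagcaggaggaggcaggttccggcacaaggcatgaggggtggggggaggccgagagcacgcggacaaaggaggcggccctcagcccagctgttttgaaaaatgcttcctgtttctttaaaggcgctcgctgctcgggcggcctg
Id2 (chr12:25096093-25096342, minus strand): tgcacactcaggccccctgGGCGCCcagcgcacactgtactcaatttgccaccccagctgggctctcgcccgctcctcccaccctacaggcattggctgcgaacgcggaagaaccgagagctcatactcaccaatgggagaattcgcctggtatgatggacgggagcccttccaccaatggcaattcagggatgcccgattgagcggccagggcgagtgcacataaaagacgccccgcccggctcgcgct
Id4 (chr13:48260866-48261115, plus strand): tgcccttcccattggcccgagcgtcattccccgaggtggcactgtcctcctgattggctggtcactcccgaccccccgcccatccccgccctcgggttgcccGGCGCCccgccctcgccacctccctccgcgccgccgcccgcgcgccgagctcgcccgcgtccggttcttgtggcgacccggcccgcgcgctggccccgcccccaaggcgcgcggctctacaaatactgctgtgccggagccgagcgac
In all 5 motifs were searched. GGCGCC was present in 3 of the 6 stretches (Id2, Id4 and Smad9), against 9.59% of 32851 stretches of the same length in the table. It was not found in those of Id3 and Atoh8, and bases outside these stretches were not searched for any gene. The palindrome GTCTAGAC, a SMAD-binding element, was in 0 of the 6, which do not include Smad7, and in 0.167% of all. The E-box CANNTG, to which bHLH factors bind, was in 3 of the 6 (Atoh8, Id2 and Smad9) against 66.2% of all, and its form CAGCTG, which is contained in it, in 2 (Atoh8 and Id2) against 13%. CCAAT, searched on both strands, was in 2 of the 6 (Id2 and Id4) against 33.8% of all. The other 4 motifs read alike on the other strand. None of the 5 was found in the stretches of Id3 and Smad6. The 6 stretches held 62.8% to 75.6% G and C, against a median of 52.4% over the table, and a match to letters alone does not show a bound site.

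Id3, one of the Id factors that BMP induces directly, had log2 values of 7.76, 7.81 and 7.77 on the differentiation arrays, against 6.43, 6.83 and 6.86 on the proliferation arrays. The differentiation values lay close together and well above all those of proliferation. The mean was 7.78 ± 0.03 in differentiation and 6.71 ± 0.24 in proliferation (SD, n = 3 each), a log2 difference of 1.07 (SE 0.13, limma adjusted p = 0.00808). The call was lost without differentiation replicate 1 (adjusted p = 0.0544), with a log2 difference between 0.93 and 1.14 when each array was left out in turn.

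Id1, the classical BMP target among these genes, read 7.48, 7.60 and 7.47 in differentiation and 7.04, 7.19 and 7.14 in proliferation. The groups did not overlap, and the log2 difference was 0.40 (standard error 0.09, 95% interval 0.19 to 0.60, limma adjusted p = 0.0579). Id2, an Id factor found in many embryonic tissues, read 10.89, 11.12 and 10.89 in differentiation and 10.61, 10.58 and 10.49 in proliferation. These groups did not overlap either, with a log2 difference of 0.41 (SE 0.10, 95% interval 0.18 to 0.64, adjusted p = 0.0765). Whether the 2 genes passed depended on the setting. With single arrays left out the adjusted p lay between 0.0869 and 0.193 for Id1 and between 0.106 and 0.265 for Id2, so neither passed. Their adjusted p was 0.0223 and 0.0318 among the clusters at or above the median level, and 0.0217 and 0.0295 when adjusted over genes instead of clusters. With robust limma-trend on all arrays and clusters it was 0.0689 for Id1 and 0.0316 for Id2, so only Id2 passed. The 95% intervals are per gene and were not adjusted for the number of genes.

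Id4, which is known from neural precursors and astrocytes of the brain, read 7.10, 7.11 and 7.36 on the differentiation arrays and 7.27, 8.44 and 7.92 on the proliferation arrays. The proliferation arrays spread widely and replicate 1 of that group lay within the range of differentiation, so the groups overlapped. The mean was 7.19 ± 0.15 in differentiation and 7.87 ± 0.59 in proliferation (SD, n = 3 each), a log2 difference of -0.69 (SE 0.28, 95% interval -1.34 to -0.03, limma adjusted p = 0.295). Without proliferation replicate 1 the log2 difference was -0.99 and the gene passed (adjusted p = 0.0493). The proliferation array with the lowest Id4 also had the lowest summed linear signal of 8 markers of enteric glia and progenitors, 15091, against 20088 in the array with the highest Id4 and 16758 in the remaining one. The summed signal of 10 markers of proliferating cells ran in the same order, with 7325, 12214 and 9092 in proliferation replicates 1, 2 and 3. Sums of fibroblast, smooth muscle and macrophage markers ran in the opposite order, those of fibroblasts with 15322, 9888 and 11492. Sums of markers of neurons, endothelial cells and interstitial cells of Cajal followed neither order. Whether cell composition takes part in the spread of Id4 was not tested.

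Among the Id factors the measured changes differed in size and direction. The change of Id3 exceeded that of Id1 by 0.67 and that of Id2 by 0.66 in log2 units, while Id1 and Id2 differed by 0.01. Id4 lay below Id3 by 1.76, below Id2 by 1.09 and below Id1 by 1.08. In 5 of the 6 pairs the within-array difference separated the groups completely, with a two-sided exact permutation p of 0.1 (adjusted p = 0.12 over the 6 pairs), which is the smallest p that 3 arrays against 3 allow and leaves these differences above 0.05. For Id1 and Id2 the exact p was 0.8, with a standard error of 0.08 on the difference.

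**Figure D1:**
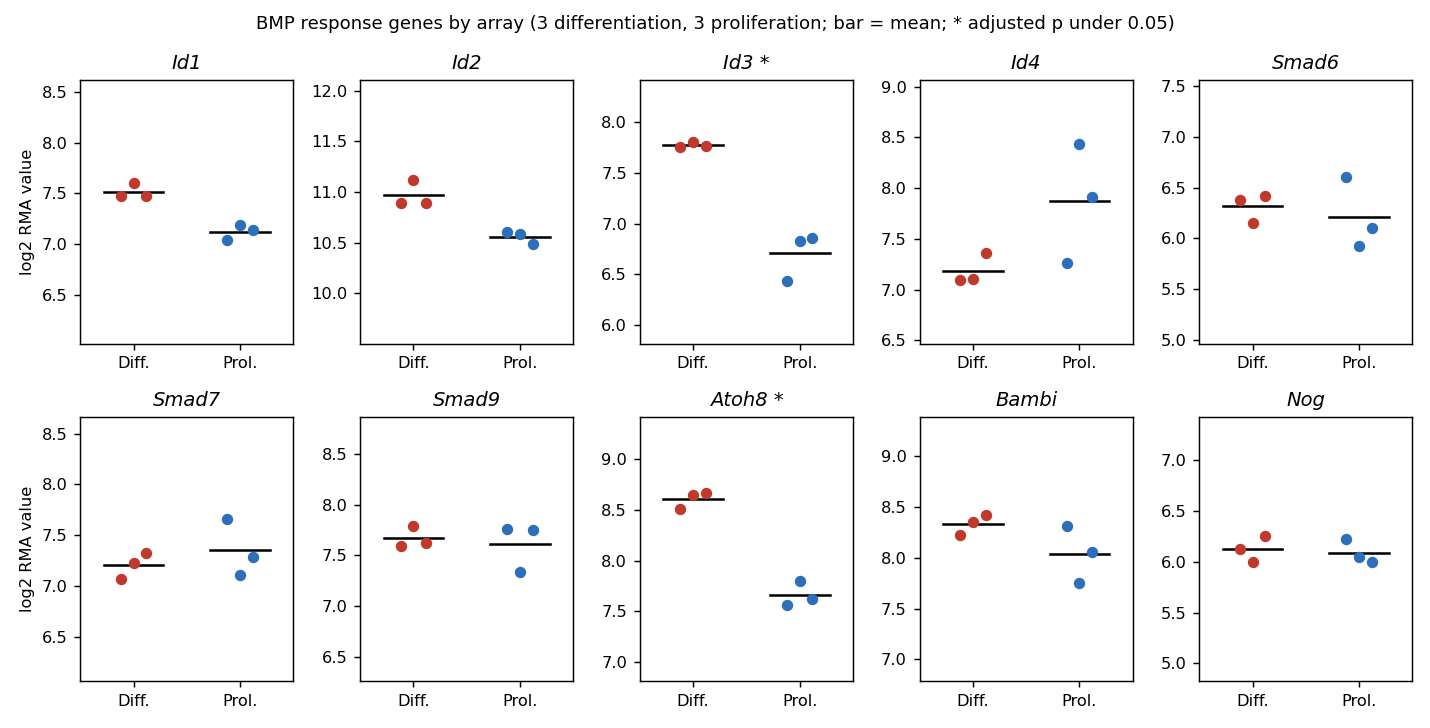
Log2 RMA value (vertical axis, each panel spanning the same range) of the 10 BMP response genes on each differentiation array (red, left) and proliferation array (blue, right), with 3 arrays per group and black bars for group means. Id1, Id2, Id3 and Atoh8 have no overlap between groups, and Id3 and Atoh8, with an asterisk, passed at an adjusted p under 0.05.

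Atoh8 encodes a bHLH factor of the atonal family, whose transcription rises with BMP signalling in endothelial cells and hepatocytes. It read 8.51, 8.65 and 8.67 in differentiation and 7.56, 7.80 and 7.62 in proliferation. All differentiation arrays stood above all proliferation arrays by a wide margin. The mean was 8.61 ± 0.09 in differentiation and 7.66 ± 0.12 in proliferation (SD, n = 3 each), with a log2 difference of 0.95 (SE 0.10, limma adjusted p = 0.00571). It passed with each array left out in turn (adjusted p from 0.00861 to 0.0378).

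None of the 3 SMADs in the set passed the test. Smad6, an inhibitory SMAD that acts mainly on BMP receptors, read 6.38, 6.15 and 6.42 in differentiation and 6.60, 5.92 and 6.11 in proliferation. The highest and the lowest value both belonged to proliferation, and the log2 difference was 0.11 (95% interval -0.32 to 0.54, limma adjusted p = 0.841). The mean of Smad6 over all arrays was 6.26, above that of 51.4% of clusters. Without detection calls, whether Smad6 was above background is not known. Smad7, an inhibitory SMAD that damps TGF-beta and BMP signals alike, read 7.07, 7.23 and 7.32 in differentiation and 7.66, 7.11 and 7.28 in proliferation, with a log2 difference of -0.14 (95% interval -0.51 to 0.22, adjusted p = 0.739). Smad9, a receptor-regulated SMAD of the BMP branch, read 7.60, 7.79 and 7.63 in differentiation and 7.76, 7.34 and 7.75 in proliferation, with a log2 difference of 0.06 (95% interval -0.27 to 0.38, adjusted p = 0.897). The upper bounds of all 3 intervals lay below 0.77, the lower bound of the interval of Id3. All 3 intervals overlapped that of Id1 (0.19 to 0.60). Differences in change between the SMADs and the Id factors were not tested.

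Bambi is a pseudoreceptor without a kinase domain that dampens TGF-beta family signals. It read 8.22, 8.35 and 8.43 in differentiation and 8.31, 7.75 and 8.06 in proliferation, where replicate 1 lay among the differentiation arrays. Its log2 difference was 0.29 (95% interval -0.06 to 0.65, limma adjusted p = 0.426). Nog encodes Noggin, the secreted antagonist that binds BMPs, and read 6.12, 6.00 and 6.26 in differentiation and 6.22, 6.05 and 5.99 in proliferation. Its log2 difference was 0.04 (95% interval -0.21 to 0.29, adjusted p = 0.904). All values of Nog lay near 6.15, the median over clusters of their mean level. Detection calls were not part of the values, so whether Nog was above background is not known.

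**Figure D2:**
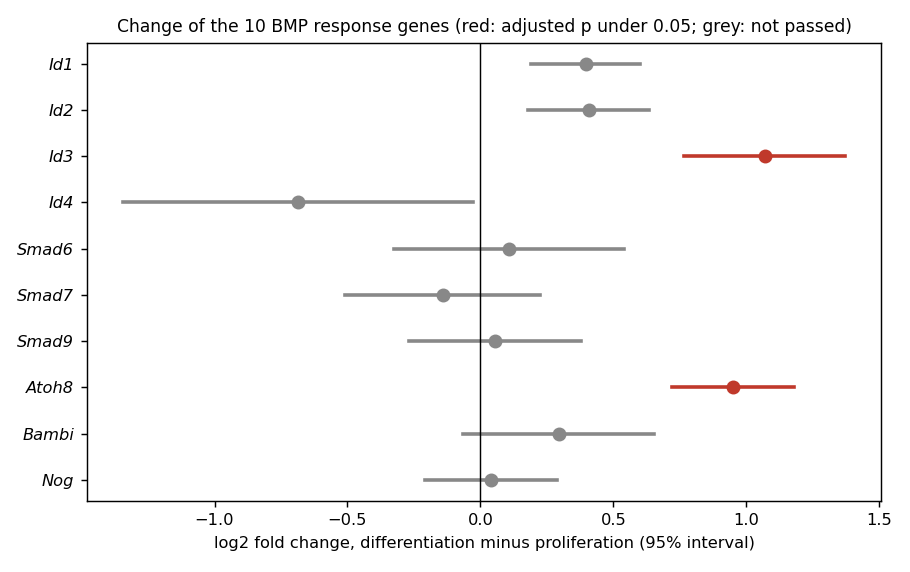
Log2 fold change, differentiation minus proliferation, of the 10 genes (horizontal axis) with 95% intervals from limma, 3 arrays per group, red for genes with an adjusted p under 0.05 and grey for the others. The intervals of Id3 (0.77 to 1.37) and Atoh8 (0.72 to 1.18) lie to the right of 0.5, and those of Smad6, Smad7, Smad9, Bambi and Nog include 0.

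In 4 of the 10 genes all differentiation arrays lay above all proliferation arrays (Id1, Id2, Id3 and Atoh8), and in 0 below them, against 14.6% and 12.9% of all genes. The median change of the 10 was 0.20, beside 0.02 over all genes. In 8 of the 10 the SD was larger in proliferation than in differentiation, against 54.6% of all genes. Proliferation replicate 2 held the lowest value of its group for Smad6, Smad7, Smad9 and Bambi, and replicate 1 the lowest for Id1, Id3, Id4 and Atoh8, 4 of the 10 genes each, against 42.2% and 28.1% of all genes.

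None of the 13 measured BMP ligands passed the test of limma, with changes between -0.17 and 0.49. At an unadjusted p under 0.05 there was 1, Gdf5, which was picked out after its values were seen and had a log2 difference of 0.49 (adjusted p = 0.184), and the methods' comparison called 0. Bmp4, a ligand of the gut mesenchyme, had the highest mean of the list and a log2 difference of 0.24 (95% interval -0.09 to 0.57, adjusted p = 0.48).

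Among 10 receptors and coreceptors 1 rose, 1 fell and 8 did not pass. Rgma, a membrane-anchored coreceptor of BMPs that also guides axons, rose with a log2 difference of 0.63 (limma adjusted p = 0.0446). Eng, the endoglin coreceptor of endothelial cells and mesenchyme, fell by 0.63 in log2 units (adjusted p = 0.0413). Rgmb, a relative of Rgma, had the highest mean of those that did not pass and a log2 difference of -0.25 (adjusted p = 0.167). At an unadjusted p under 0.05, 2 were higher and 4 lower. Among them were the type I receptors Acvr1, Acvrl1 and Bmpr1a, picked out after their values were seen, whose groups did not overlap, with log2 differences of 0.33, -0.38 and -0.25 (adjusted p = 0.107, 0.136 and 0.228). Leaving out single arrays ended the call of Rgma (differentiation replicate 1, 2 or 3 or proliferation replicate 2 or 3, adjusted p from 0.107 to 0.161) and of Eng (differentiation replicate 1, 2 or 3 or proliferation replicate 1 or 3, adjusted p from 0.0655 to 0.169).

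Of 12 other SMADs and SMAD regulators, Smurf1 alone passed. It encodes a ubiquitin ligase that marks SMAD1 and SMAD5 for degradation, and its mean was 10.54 ± 0.01 in differentiation and 9.84 ± 0.21 in proliferation (SD, n = 3 each), a log2 difference of 0.70 (limma adjusted p = 0.0225). The call was lost without differentiation replicate 1, 2 or 3 or proliferation replicate 3 (adjusted p from 0.0679 to 0.11). Zeb2, which binds activated SMADs and acts in the enteric neural crest, had a log2 difference of 0.25 (adjusted p = 0.255).

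Among the 6 lists of other BMP pathway genes, extracellular modulators, the longest list, held the most changes. Increases were found for 4 of the 16 measured and decreases for 0, against 2.94% and 2.97% of all genes, with a median change of 0.15. Fstl3, a follistatin-like protein that binds activin and related ligands, rose most, with a mean of 8.86 ± 0.15 in differentiation and 7.61 ± 0.29 in proliferation (SD, n = 3 each) and a log2 difference of 1.25 (limma adjusted p = 0.00985). Crim1, a membrane protein with chordin-like repeats that binds BMPs, rose by 1.00, Bmper, a secreted BMP modulator, by 0.61 and Chrdl1, a chordin-like antagonist, by 0.47 in log2 units (adjusted p = 0.0167, 0.0182 and 0.0281). At an unadjusted p under 0.05, 6 were higher and 1 lower, and the methods' comparison called 3 higher and 0 lower. Fstl1, with the highest mean of those that did not pass, had a log2 difference of -0.13 (adjusted p = 0.465). The call ended for Fstl3 without differentiation replicate 1 (adjusted p = 0.0512), for Crim1 without differentiation replicate 1 or 3 or proliferation replicate 3 (adjusted p from 0.0572 to 0.0931), for Bmper without differentiation replicate 1, 2 or 3 or proliferation replicate 3 (adjusted p from 0.0592 to 0.0751) and for Chrdl1 without differentiation replicate 1, 2 or 3 or proliferation replicate 2 or 3 (adjusted p from 0.0742 to 0.13).

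Of 11 other transcription factors known to respond to BMP, 0 passed limma's test, while 2 were higher and 3 lower at an unadjusted p under 0.05 and the methods' comparison called 0. Tbx3, which had the highest mean, had a log2 difference of -0.21 (adjusted p = 0.264). Hey1, a repressor shared with the Notch pathway, and Sox9, a factor of neural crest and glia, were picked out after their values were seen. They had log2 differences of 0.60 and -0.92 (adjusted p = 0.216 and 0.217), and the groups did not overlap in either gene. For Sox9 the adjusted p was 0.0368 without proliferation replicate 2.

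Id proteins act through bHLH partners, and of 13 measured E proteins and tissue-specific bHLH factors 2 rose and 11 did not pass. Olig1, a factor of the oligodendrocyte lineage of the brain, had a mean of 10.36 ± 0.08 in differentiation and 8.95 ± 0.10 in proliferation (SD, n = 3 each), a log2 difference of 1.41 (limma adjusted p = 0.00192), and passed with each array left out. Neurod4, a neurogenic factor, rose by 1.03 in log2 units (adjusted p = 0.0276), with means of 6.24 in differentiation and 5.21 in proliferation, around and below the median cluster mean. Its call was lost without differentiation replicate 1 or 3 or without proliferation replicate 1, 2 or 3 (adjusted p from 0.051 to 0.112). Tcf4, an E protein with the highest mean of those that did not pass, had a log2 difference of 0.20 (adjusted p = 0.231). Olig2, the partner of Olig1, was picked out after its values were seen and had a log2 difference of 0.68 (adjusted p = 0.147), with an adjusted p of 0.0211 without proliferation replicate 2.

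Over these 6 lists 8 of 75 genes rose and 1 fell. Of the increases, Olig1 and Neurod4 came from the list of E proteins and bHLH factors, which were taken as partners of Id proteins. The calls make 12% of the 75, against 5.91% of all genes. The lists were chosen with earlier results of these data known, and a comparison of such shares does not allow for that. The median change of the 75 was 0.03, beside 0.02 over all genes. The number of calls was 1, 4 and 2 without differentiation replicates 1, 2 and 3 and 2 without proliferation replicate 3. Of 8 measured genes known to respond to TGF-beta, the sister branch that also induces Smad7, 2 rose. They were Tagln by 1.44 and Acta2 by 0.76 in log2 units (limma adjusted p = 0.00586 and 0.0185), and both are also markers of smooth muscle. At an unadjusted p under 0.05 in limma 3 were higher and 0 lower, and the methods' comparison gave the same counts. Among these 3 was Tgfbi, picked out after its values were seen. Its log2 difference was 1.10 (limma adjusted p = 0.099), and the groups did not overlap. Fn1, the fibronectin gene, had a log2 difference of 0.24 (adjusted p = 0.683). The call of Acta2 was lost without differentiation replicate 1, 2 or 3 or proliferation replicate 3 (adjusted p from 0.0614 to 0.0838).

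**Figure D3:**
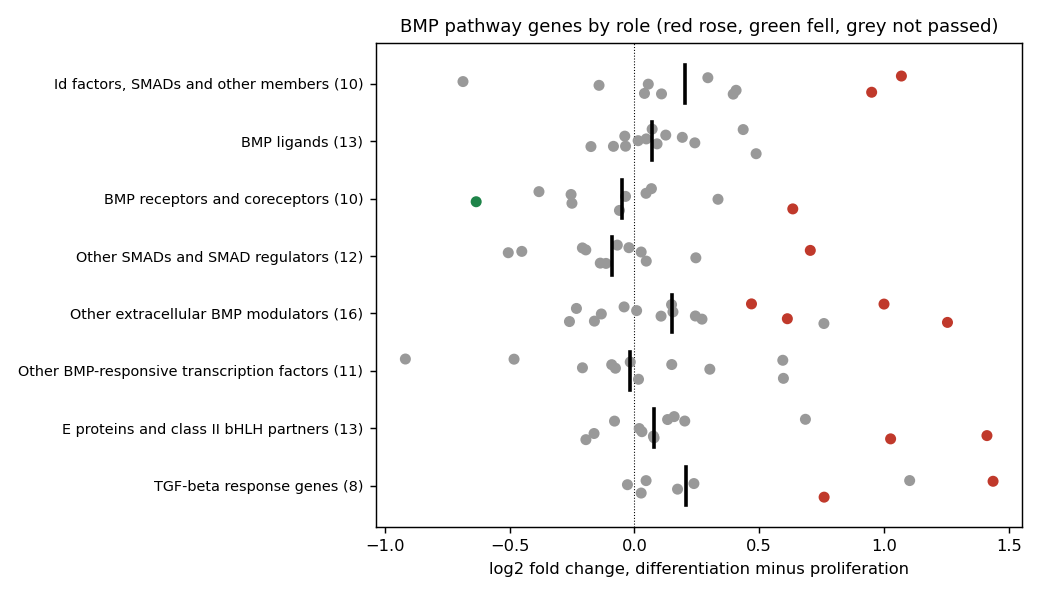
Log2 difference between differentiation and proliferation (horizontal axis) of single genes, shown as points, for each role in the pathway (vertical axis, number of genes measured in brackets), with black bars for medians, 3 arrays per group and no meaning in the vertical scatter. The 4 increases (red) among extracellular modulators lie between 0.47 and 1.25, the only decrease (green) is Eng at -0.63, and the ligands are all grey.

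Enterospheres are mixed, and in bulk RNA fewer cells of a type and less RNA per cell cannot be told apart. All 10 markers of proliferating cells fell, with a summed linear signal of 2104 to 2471 in differentiation and 7325 to 12214 in proliferation, led by Bub1 and Mki67 with log2 differences of -2.52 and -2.35. Of 10 smooth muscle markers 4 rose and 1 fell, with summed signals of 2657 to 2909 in differentiation and 2368 to 2650 in proliferation, and Actg2 rose by 1.22. Of 8 markers of enteric glia and progenitors 1 rose (Gfap by 1.16) and 2 fell (Fabp7 with a log2 difference of -1.07), with overlapping sums of 15707 to 17045 in differentiation and 15091 to 20088 in proliferation. Of 9 neuronal markers 2 rose (Tubb3 by 0.98 and Gap43 by 0.69), with sums of 15994 to 17174 in differentiation and 12221 to 15907 in proliferation. Of 10 fibroblast markers Dpt alone rose, by 1.20, with overlapping sums of 12909 to 14190 in differentiation and 9888 to 15322 in proliferation. Of 5 markers of interstitial cells of Cajal 2 fell, Ano1 with a log2 difference of -1.43 and Prkcq with -1.15. The sums of these 5 were 5151 to 5637 in differentiation and 7057 to 9043 in proliferation. At an unadjusted p under 0.05 in limma all 5 were lower, against 19.1% of all genes in either direction. The part of these markers in the changes of Id3 and Atoh8 was not tested.

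Endothelial cells also express Id3, Atoh8 and Smad6, so their markers stand beside these results. Of 10 endothelial markers 0 passed limma's test, with 0 higher and 1 lower at an unadjusted p under 0.05 and 0 by the methods' comparison. Their summed linear signal was 875 to 1005 in differentiation and 872 to 1028 in proliferation, and 7 of the 10 had a mean below the median cluster mean. All differentiation arrays lay above all proliferation arrays in 2 of the 10 and below them in 1, against 14.6% and 12.9% of all genes. The part of endothelial cells in the changes of Id3 and Atoh8 was not tested. Macrophage markers gave 0 of 10 as well, with 0 at an unadjusted p under 0.05 and 0 by that comparison, and all 10 had means below the median cluster mean. Among the markers named, the call was lost without differentiation replicate 1 for Ano1 and Prkcq, without differentiation replicate 1, 2 or 3 or proliferation replicate 3 for Gfap, without differentiation replicate 1 or 3 or proliferation replicate 3 for Fabp7, and without differentiation replicate 1, 2 or 3 or proliferation replicate 1 for Tubb3 (adjusted p from 0.0502 to 0.106).

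**Figure D4:**
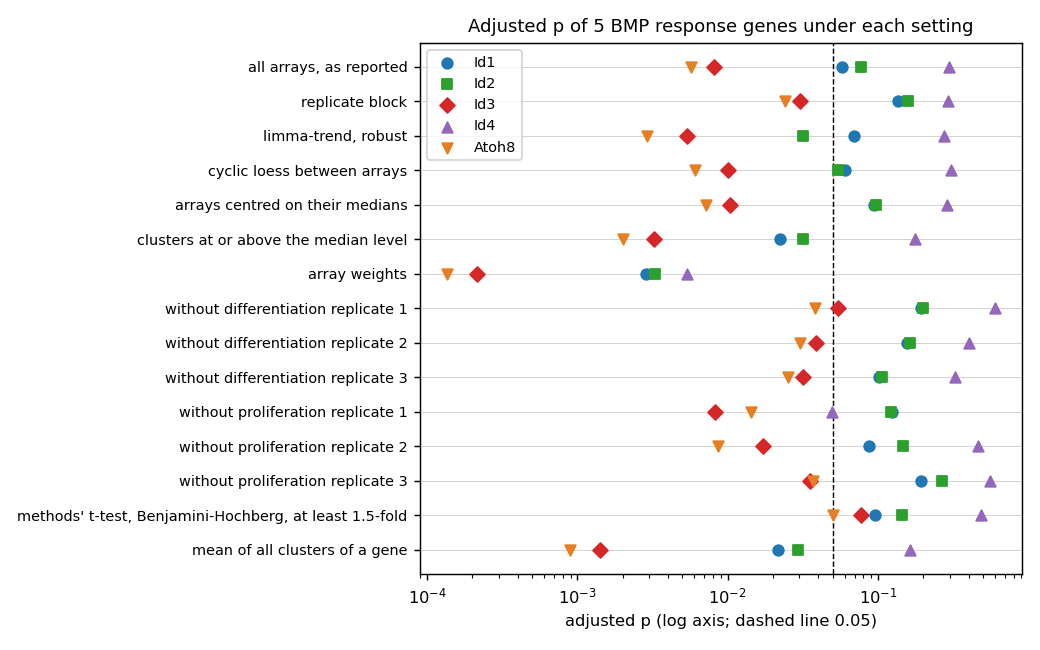
Adjusted p (horizontal log axis, dashed line at 0.05) of Id1, Id2, Id3, Id4 and Atoh8 under each setting of the analysis (vertical axis). Atoh8 and Id3 lie left of the line except for Id3 without differentiation replicate 1 and both genes with the adjusted comparison of the methods, while Id1 and Id2 cross it with the setting and Id4 does so with array weights and without proliferation replicate 1.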

How the data were processed

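RNA of 6 samples, 3 of differentiating and 3 of proliferating enterospheres, was hybridised to 1 array each. The authors deposited log2 values, which they had obtained with the RMA algorithm in Partek software. RMA usually forces the arrays to a common distribution, which would hide a shift common to most transcripts. The genome build behind the values is not given in the sources used here. Array values carry no counts, and their precision is limited by the number of arrays. Arrays of 1 group correlated at 0.988 to 0.995 and arrays of different groups at 0.983 to 0.989.

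Groups came from the sample titles. Gene symbols came from the platform annotation, which gave 1 symbol to 21789 clusters, several to 1621 and none to 12146, and where a gene had several clusters, that with the highest mean of the 6 arrays stood for it. Groups were compared with lmFit and eBayes of limma 3.58.1 (R 4.3.3), two-sided, with group as the term. Differences in change between Id genes used exact permutation tests in scipy 1.17.1. Figures were drawn with matplotlib 3.10.9. The fit was tested on simulated arrays.

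The 10 genes, the lists of pathway genes and cell type markers, and the tests were chosen with earlier results of these data known. Of 163 entries in the lists 155 were measured and the others were not analysed here. Named genes were the 10, up to 5 genes past the test with the largest change and the brightest gene that did not pass in each pathway list, and up to 2 past the test in each marker list, 38 in all, with others marked in the text. The results were recomputed with a block for the replicate number, with robust limma-trend, after cyclic loess or median centring, with clusters at or above the median level, with array weights, without each array, with clusters averaged per gene, and by the methods' t-test (unadjusted p under 0.05 and at least 1.5-fold, and the same after Benjamini-Hochberg adjustment).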

Additional observations from a re-analysis of the deposited data

How the results depend on the processing

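Of the 10 BMP response genes, 2 passed with all arrays, and with single arrays left out the number lay between 1 and 3. It was 3 with robust limma-trend, which added Id2. It was 4 among clusters at or above the median level and 4 with clusters averaged per gene, which adjusts over fewer tests. Array weights gave 5, adding Id1, Id2 and Id4, and the t-test after Benjamini-Hochberg adjustment gave 0. In that t-test Id3 and Atoh8 had an adjusted p of 0.0766 and 0.0505. The weights were 7.45 for differentiation replicate 1, 3.62 for proliferation replicate 3 and below 0.5 for the other 4 arrays.

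Changed clusters numbered 1459 (693 higher, 766 lower) and 294 to 1297 with single arrays left out, 12721 (7315 higher, 5406 lower) with array weights and 176 with the adjusted t-test. The 75 other pathway genes gave 9 calls, 1 to 8 with single arrays left out, 32 with array weights and 1 with the adjusted t-test. Where no further value is given, the cause of these shifts was not tested.

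Sample numbers showed no clear pairing of the arrays. The correlations of deviations from the group means were -0.003, 0.09 and -0.07 for equal numbers, and -0.17 to 0.16 for unequal numbers. Such correlations over all clusters cannot exclude that arrays with equal numbers came from the same experiment. With the replicate number as a block 664 clusters passed, 3 of the 75 pathway genes (Fstl3, Crim1 and Olig1) and the same 2 of the 10 genes, Id3 and Atoh8 (adjusted p = 0.0303 and 0.0241), while Id1 and Id2 had an adjusted p of 0.135 and 0.157.

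Among genes that did not pass, the sign changed for Nog after cyclic loess (-0.0074), for Smad9 with array weights (-0.10) and with single arrays left out for Smad6 (-0.035 to 0.30), Smad7 (-0.26 to 0.013), Smad9 (-0.085 to 0.13), Nog (-0.025 to 0.11) and Fn1 (-0.0042 to 0.46).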
